A study of Homo sapiens with 6 samples.

Results

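The acute-phase and antimicrobial genes of epithelia were followed across 6 one-color Agilent arrays of the human breast cancer cell line BT474, which is estrogen receptor-positive and HER2-positive. The members are SAA1, SAA2, SAA4, LCN2, S100A7, S100A8, S100A9, PI3, SLPI and C3, and every array probe that carried one of these gene names was taken. They had 12 probes, 1 for each gene except SAA2 and C3 with 2 each, of 58201 probes under 43317 gene names. Control cells had been transfected with an empty pcDNA3.1 plasmid, BT474-Var1 cells with pcDNA3.1 that held variant 1 of the long noncoding RNA NR2F1-AS1, and BT474-Var4 cells with the plasmid for variant 4, and each group had 2 arrays, named A and B. Per the study the transfected cells were selected with an antibiotic and then kept without it. All 3 groups grew in RPMI-1640 with fetal bovine serum. The paper reports that cells given either variant dwindled to a few, from which colonies later grew out. The part of this outgrowth of survivors in the differences from Control cells was not tested. The question of the study was what gain of either transcript does to these cells. Per the study's methods, the Var4 plasmid carried an eGFP cassette and the Var1 plasmid was the Hygro(+) form of pcDNA3.1. The transcript and the plasmid backbone therefore cannot be told apart between the 2 variant populations. It is not stated which empty plasmid the Control cells of the arrays carried, and nothing says that arrays of a group came from separate cultures, so the p-values measure only the spread between these samples, which may be technical.

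These genes encode secreted and released proteins of innate defense. Inflammatory signals such as IL1, IL6, IL17 and TNF are known to induce many of them in epithelia through NF-kappaB, C/EBP and STAT3. The serum amyloid A proteins SAA1 and SAA2 are lipoprotein-bound acute-phase reactants and SAA4 is their constitutive relative. LCN2 binds bacterial siderophores and so withholds iron, S100A8 and S100A9 pair to form the metal-binding protein calprotectin, and S100A7 is psoriasin. PI3 (elafin) and SLPI are inhibitors of neutrophil elastase with a whey acidic protein (WAP) fold, and C3 is the central component of complement. In breast tissue S100A7 is known from ductal carcinoma in situ and LCN2 from invasive tumors.

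A level here is the fluorescence of 1 probe of 60 bases, so the probe decides which part of a transcript is read. The probes of the 6 tested genes other than S100A8 lie in the coding part and are shown in full, both C3 probes included because they differed in detection. The last bases of the S100A8 probe run past its stop codon, so it is shown up to that codon, which is in capitals.
S100A8: aaagccatgaagaaagccacaaagagTAG
S100A9: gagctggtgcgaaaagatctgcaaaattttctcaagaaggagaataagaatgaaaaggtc
S100A7: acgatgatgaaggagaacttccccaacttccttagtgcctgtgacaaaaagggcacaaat
PI3: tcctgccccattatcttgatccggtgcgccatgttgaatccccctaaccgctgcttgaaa
SLPI: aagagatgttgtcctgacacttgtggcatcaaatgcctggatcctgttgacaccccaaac
LCN2: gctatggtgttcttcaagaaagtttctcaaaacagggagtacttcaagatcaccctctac
C3, tested probe: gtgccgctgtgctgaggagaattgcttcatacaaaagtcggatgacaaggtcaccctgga
C3, probe not above background: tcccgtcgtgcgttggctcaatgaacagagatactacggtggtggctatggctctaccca
The files place them on hg19 (GRCh37). S100A9 (chr1:153330874-153333143, plus strand), S100A8 (chr1:153362548-153362607, minus strand) and S100A7 (chr1:153430429-153431390, minus strand) lie within 100.5 kb of chromosome 1. PI3 (chr20:43804645-43804704, plus strand) and SLPI (chr20:43882220-43882279, minus strand) lie within 77.6 kb of chromosome 20, and the 4 SAA probes within 37.3 kb of chromosome 11. LCN2 is at chr9:130914244-130914303 (plus strand) and the C3 probes are at chr19:6679177-6679434 and chr19:6686136-6686195 (minus strand). The probes of S100A9, S100A7, SAA1 and the tested probe of C3 span 258 to 2270 bases of the genome with 60 bases of sequence and so cross an exon junction. The longest run that any member probe shared with a probe for another gene on the array was 13 to 15 bases, and among the S100 members it was 5 to 9 bases.

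Between 47.6% and 57.5% of the probes of an array were marked well above background by the scanner software. Levels are given as log2 of the processed intensity with 0 at the array's 75th percentile, and the dimmest probe well above background lay between -4.51 and -3.60 on this scale. The arrays of a group correlated at r = 0.993 to 0.996 over the tested probes, and probes are no independent replicates. Of the 4 NR2F1-AS1 probes 3 were higher in BT474-Var1 and 2 in BT474-Var4 than in Control cells by the test used below. All 8 luminal breast markers examined were well above background on all arrays, with a summed level, in multiples of the 75th percentile, of 2060 to 2090 in Control, 2620 to 2660 in BT474-Var1 and 2010 to 2030 in BT474-Var4 cells. The part of this shift in the results was not tested. Of 8 granulocyte and monocyte markers, whose cells are the main source of S100A8 and S100A9 in blood, 5 had a probe and 4 were well above background on all arrays, with a summed level of 2.33 to 2.36, 2.32 to 2.45 and 2.32 to 2.46 in the same order. Of 6 hepatocyte markers 3 were well above background on all arrays and FGB on none, with sums of 0.945 to 1.23 over the 6 arrays. Of 9 markers of stratified epithelium 5 were well above background on all arrays and KRT5 on none, with sums of 81.7 to 89.7. On the slide the 2 BT474-Var1 arrays shared 1 column and the other 4 arrays the other, so position and Var1 cannot be told apart.

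Of the 3 S100 members, S100A8 was higher in BT474-Var4 cells than in both other groups, S100A7 was lower in BT474-Var4 than in Control cells, and no difference of S100A9 passed the test. S100A8 had log2 levels of 1.44 and 1.48 in Control A and B, 1.61 and 1.59 in BT474-Var1 A and B, and 2.19 and 2.14 in BT474-Var4 A and B. Both BT474-Var4 arrays lay above the other 4, and the BT474-Var1 arrays lay just above both Control arrays. The increase in BT474-Var4 over Control cells was 0.71 on the log2 scale (SE 0.05, n = 2 arrays per group, limma adjusted p = 0.00465), and over BT474-Var1 cells it was 0.56 (SE 0.05, limma adjusted p = 0.0033). BT474-Var1 cells differed from Control cells by 0.15 (95% confidence interval 0.01 to 0.29, limma adjusted p = 0.0892). This difference passed under quantile normalization, where it was 0.22 (limma adjusted p = 0.0364). It also passed with trended and robust moderation and in the one-way analysis of variance.

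S100A9, the partner of S100A8 in calprotectin, had log2 levels of -1.86 and -1.73 in Control A and B, -2.26 and -1.74 in BT474-Var1 A and B, and -2.20 and -1.42 in BT474-Var4 A and B. The arrays of the 2 variant groups spread over the whole range and overlapped the Control arrays. The difference of BT474-Var4 from Control cells was -0.02, and its 95% confidence interval of -0.86 to 0.82 holds the increase measured for S100A8 (limma adjusted p = 0.973). S100A7 had log2 levels of -1.78 and -1.56 in Control A and B, -1.94 and -1.76 in BT474-Var1 A and B, and -2.17 and -2.16 in BT474-Var4 A and B. The BT474-Var4 arrays were the lowest, while the BT474-Var1 and Control arrays overlapped. S100A7 fell by 0.49 on the log2 scale in BT474-Var4 against Control cells (SE 0.11, limma adjusted p = 0.0369), with a difference of -0.18 in BT474-Var1 cells (limma adjusted p = 0.253). Without any 1 of the 6 arrays the S100A7 difference no longer passed (limma adjusted p = 0.0529 to 0.128), and under quantile normalization it did not pass either (-0.43, limma adjusted p = 0.0512).

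The elastase inhibitors PI3 and SLPI were both raised in BT474-Var4 against BT474-Var1 cells, by about the same amount, but they stood differently to Control cells. PI3 had log2 levels of 0.34 and 0.35 in Control A and B, -0.01 and -0.08 in BT474-Var1 A and B, and 0.61 and 0.57 in BT474-Var4 A and B. The 3 groups did not overlap, with BT474-Var1 below and BT474-Var4 above Control cells. PI3 fell by 0.39 on the log2 scale in BT474-Var1 cells (SE 0.05, limma adjusted p = 0.00924), rose by 0.24 in BT474-Var4 cells (SE 0.05, limma adjusted p = 0.0377), and was 0.64 higher in BT474-Var4 cells when set against BT474-Var1 (SE 0.05, limma adjusted p = 0.00273). SLPI had log2 levels of 1.58 and 1.63 in Control A and B, 1.60 and 1.55 in BT474-Var1 A and B, and 2.19 and 2.11 in BT474-Var4 A and B. The Control and BT474-Var1 arrays overlapped and both BT474-Var4 arrays lay above them. SLPI rose by 0.54 on the log2 scale in BT474-Var4 cells (SE 0.06, limma adjusted p = 0.00865) and was 0.58 higher there than in BT474-Var1 cells (limma adjusted p = 0.00385), while BT474-Var1 differed from Control cells by -0.04 (95% confidence interval -0.19 to 0.12, limma adjusted p = 0.671). The PI3 rise in BT474-Var4 cells did not pass without any 1 of the 6 arrays (limma adjusted p = 0.0627 to 0.149). The adjusted p by limma was 0.0557 without Control A for the PI3 fall in BT474-Var1 cells and 0.0591 for the SLPI rise in BT474-Var4 cells, and without Control B these were 0.0553 and 0.0537.

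**Figure D1:**
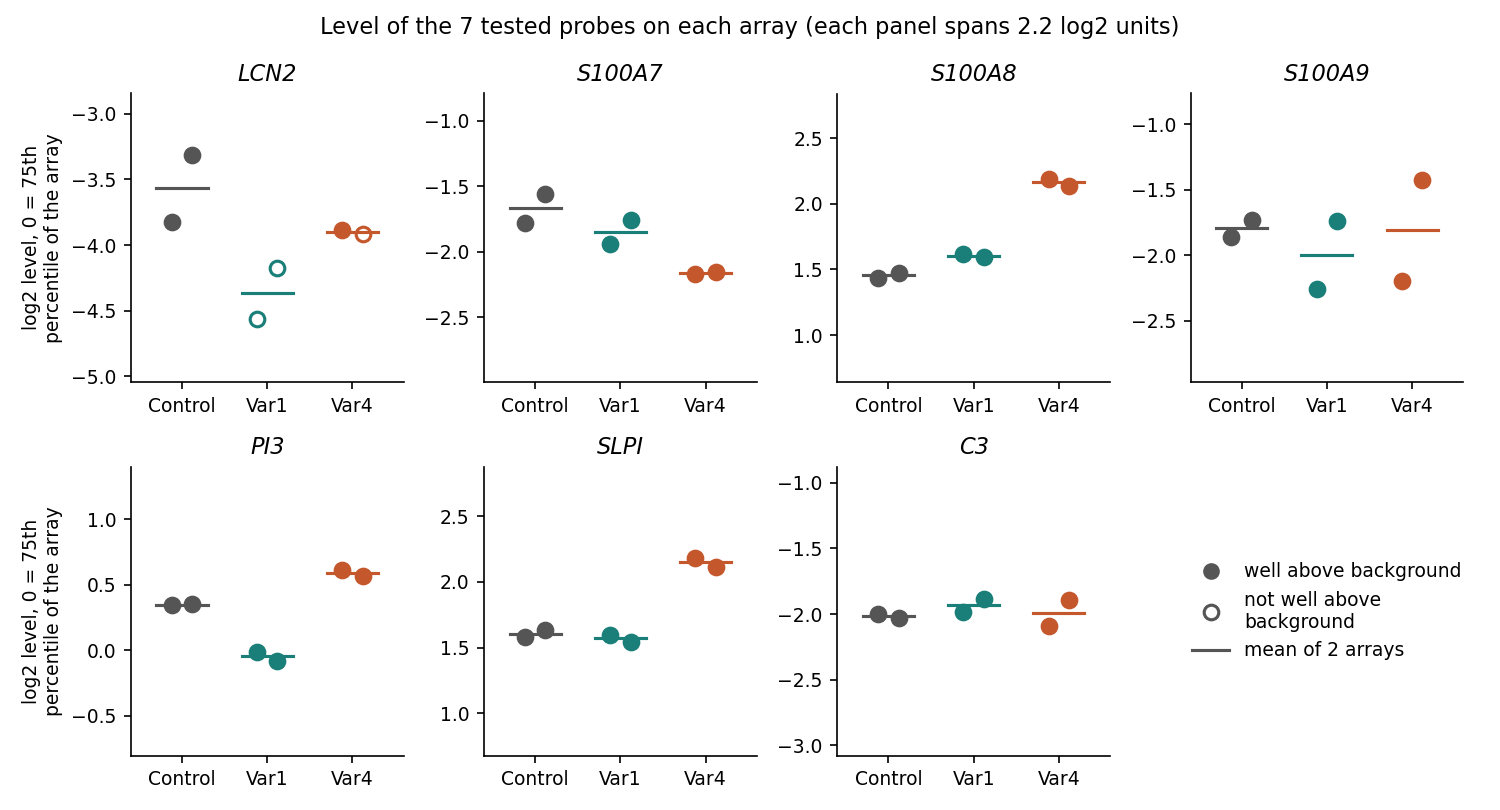
Level of each tested probe on each array, as log2 of the processed intensity with 0 at the 75th percentile of the array, for Control, BT474-Var1 (Var1) and BT474-Var4 (Var4) cells. Each point is 1 array, filled where the probe was well above background and open where it was not, and lines mark the mean of 2 arrays. S100A8 and SLPI stand out on the BT474-Var4 arrays (2.14 to 2.19 and 2.11 to 2.19), PI3 separates all 3 groups, and the 2 BT474-Var4 points of S100A9 lie far apart.

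No difference of LCN2 or the tested C3 probe passed, and the SAA genes were not measurable in any group. LCN2 had log2 levels of -3.82 and -3.31 in Control A and B, -4.56 and -4.17 in BT474-Var1 A and B, and -3.89 and -3.92 in BT474-Var4 A and B. It was well above background on both Control arrays, on neither BT474-Var1 array and on BT474-Var4 A alone, and the BT474-Var1 arrays were the lowest. LCN2 thus entered the test through the Control arrays alone. Set against the dimmest measurable signal in BT474-Var1 cells its Control mean was 1.37-fold higher, which takes no account of the spread of the arrays. The fitted difference of BT474-Var1 from Control cells was -0.80 (95% confidence interval -1.38 to -0.22) and did not pass (limma adjusted p = 0.0501). That value is at the threshold of 0.05, and it passed with quantile normalization (-1.07, limma adjusted p = 0.0238), in the deposited table (limma adjusted p = 0.0498) and with the replicate letter as a block (limma adjusted p = 0.0426). BT474-Var4 cells differed from Control cells by -0.34 (95% confidence interval -0.92 to 0.24, limma adjusted p = 0.314).

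The tested C3 probe had log2 levels of -2.0 and -2.03 in Control A and B, -1.98 and -1.88 in BT474-Var1 A and B, and -2.09 and -1.89 in BT474-Var4 A and B. Its arrays ran close together over all groups, with differences from Control cells of 0.08 in BT474-Var1 (95% confidence interval -0.16 to 0.31, limma adjusted p = 0.528) and 0.02 in BT474-Var4 cells (-0.21 to 0.26, limma adjusted p = 0.881). The other C3 probe was not well above background on any array, at processed intensities of 2.05 to 6.0. The SAA1 probe (2.10 to 4.80), the SAA4 probe (1.01 to 2.04) and the first SAA2 probe (1.17 to 2.39) were likewise not well above background on any array. The second SAA2 probe was well above background on BT474-Var1 A alone, at an intensity of 9.67, against 1.36 on BT474-Var1 B and 1.45 to 3.28 on the other 4 arrays. These 5 probes were therefore not tested, and no statement is made on whether SAA1, SAA2 or SAA4 differed between the groups.

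In the comparison with Control cells, 1 of the 7 tested members passed in BT474-Var1 cells (PI3, lower), beside 34.4% of all 31857 tested probes, of which 14.1% were higher and 20.3% lower. In BT474-Var4 cells 4 of 7 passed, with S100A8, SLPI and PI3 higher and S100A7 lower, beside 24.2% of all probes (9.87% higher, 14.3% lower). Between the variants 3 of 7 passed, S100A8, SLPI and PI3, all higher in BT474-Var4 cells, beside 41.2% of all probes (20.4% higher, 20.7% lower). The median difference of the 7 tested members was -0.18 for BT474-Var1 and 0.02 for BT474-Var4 against Control cells, beside -0.04 and -0.08 over all tested probes. No member passed with a change of 2-fold or more in the limma fit, where 3.94%, 3.17% and 6.87% of all probes did in the 3 comparisons in the order given here. The 2 comparisons with Control cells share the Control arrays and are not independent of each other. Fewer members passed against Control cells when a Control array was left out, and fewer in BT474-Var4 cells when any other array was. Such a fit leaves 1 array in a group, and fewer of all tested probes passed too. S100A8, SLPI and PI3 passed between the variants with each array left out. When the dim probes were tested too, without a filter, 0 of 12 member probes passed against Control cells in either variant by limma (2 for BT474-Var1 and 4 for BT474-Var4 had an unadjusted p under 0.05), while the same 3 passed between the variants.

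**Figure D2:**
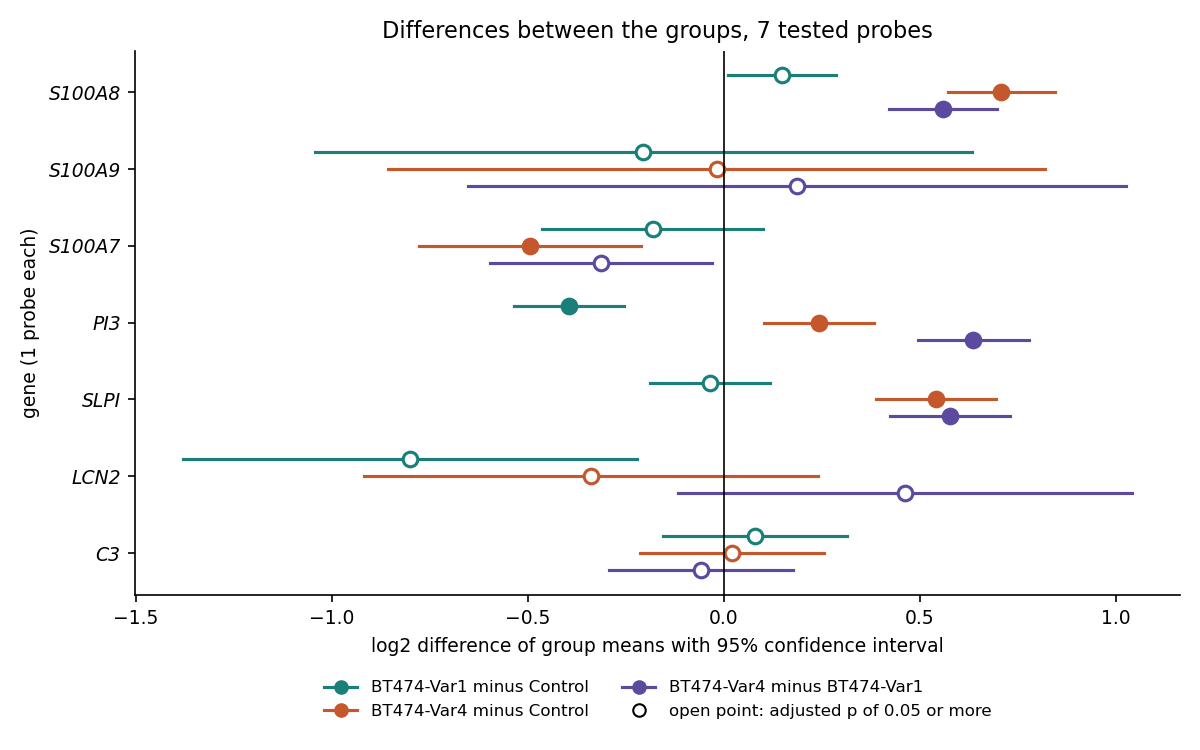
Differences of group means for the 7 tested member probes on the log2 scale (x axis) with 95% confidence intervals from the fit, in 3 comparisons per gene. Filled points passed at an adjusted p under 0.05. The BT474-Var4 intervals of S100A8 and SLPI lie well above 0 in both comparisons, PI3 lies below 0 in BT474-Var1 and above 0 in BT474-Var4 cells, and the S100A9 intervals are the widest.

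The other members of the S100 family, small calcium-binding proteins most of which are encoded near S100A8 on chromosome 1, were measured by 14 tested probes of 12 genes. Of all tested probes 9.87% were higher and 14.3% lower in BT474-Var4 than in Control cells. Of these S100 probes 9, of 8 genes, were higher and 0 lower, with a median difference of 0.45 beside -0.08 over all probes. They were S100A4, S100A6, S100A10, S100A11 (2 probes), S100A13, S100A14, S100A16 and S100P, whose increases ran from 0.26 (S100P) to 1.22 (S100A4). S100A4, known for its part in cell motility and metastasis, had log2 levels of 1.55 and 1.66 in Control A and B, 1.83 and 1.83 in BT474-Var1 A and B, and 2.84 and 2.82 in BT474-Var4 A and B. It rose in both variants, by 1.22 in BT474-Var4 (SE 0.06, limma adjusted p = 0.00293) and by 0.22 in BT474-Var1 cells (SE 0.06, limma adjusted p = 0.046), where the call was lost without any 1 of the 6 arrays (limma adjusted p = 0.0778 to 0.174).

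In BT474-Var1 cells 2 S100 probes were higher (S100A2 and S100A4) and 5 lower (S100A1, S100A10, S100A16 and both probes of S100A11), with a median of -0.07. Of all tested probes 14.1% were higher and 20.3% lower there. S100A2 rose by 0.37 (limma adjusted p = 0.0338). This call was lost with the replicate letter as a block and in the one-way analysis of variance, among others. Of the S100A1 probes, 1 was at least 1.09-fold lower in BT474-Var1 cells (limma adjusted p = 0.0401). It was not well above background on either array there, and with normexp its difference was -0.013 (limma adjusted p = 0.841). The other S100A1 probe had a difference of -0.42 (limma adjusted p = 0.0874). Under quantile normalization the BT474-Var1 counts were 4 higher and 3 lower, with S100A11 and S100A10 no longer among the lower ones, while in BT474-Var4 cells they stayed at 9 higher and 0 lower. Between the variants 10 of the 14 probes were higher in BT474-Var4 cells and 0 lower, beside 20.4% and 20.7% of all tested probes. The 10 included an S100A1 probe that was not well above background on any array of either variant. Fewer S100 probes passed in either variant when a Control array or an array of that variant was left out, as did fewer of all tested probes.

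**Figure D3:**
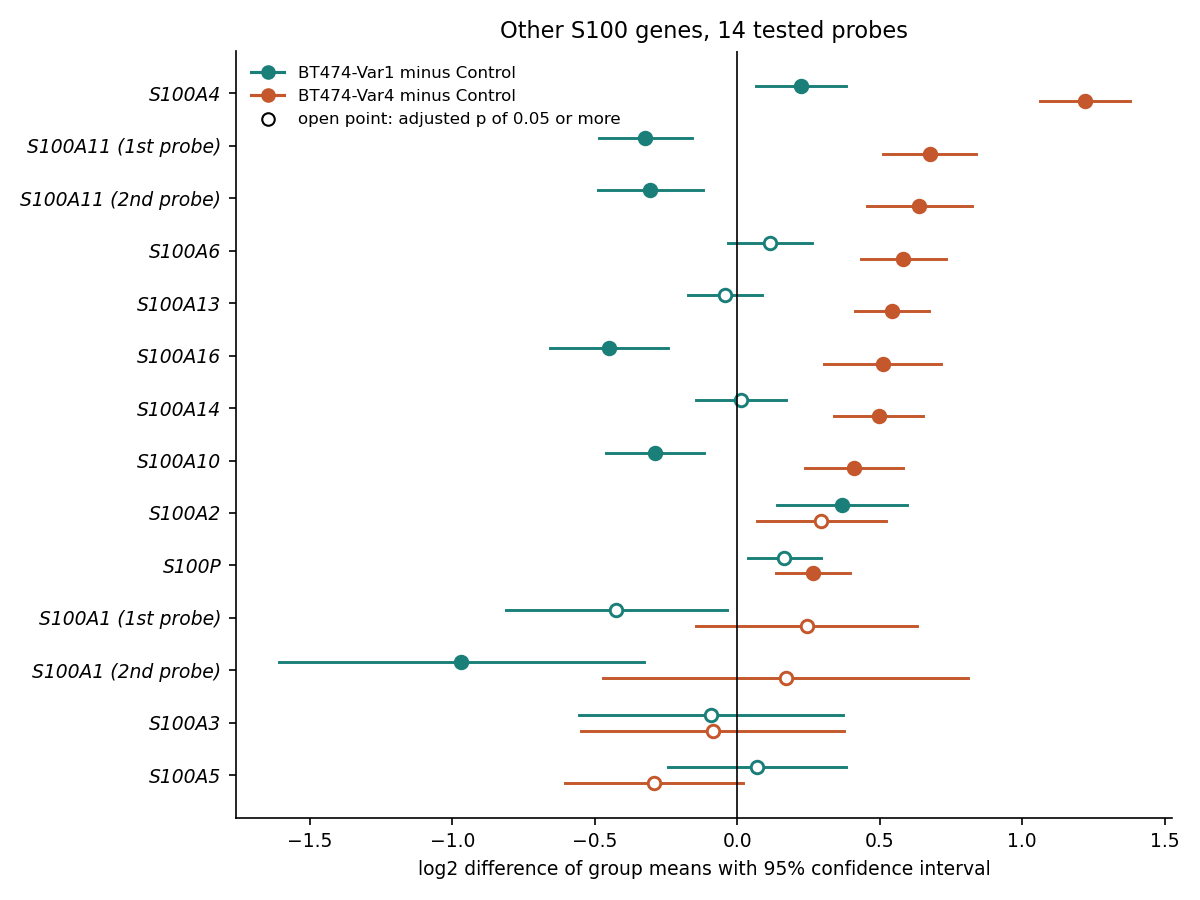
Differences from Control cells on the log2 scale (x axis) with 95% confidence intervals for the 14 tested probes of 12 S100 genes that are not members, ordered by the BT474-Var4 difference. Filled points passed at an adjusted p under 0.05. From S100A4 at 1.22 down to S100A10 at 0.41, 8 probes passed as higher in BT474-Var4 cells, and the BT474-Var1 points of S100A11, S100A16 and S100A10 lie on the other side of 0.

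The neighborhood of the members on the array was then read out within 250 kb on either side of the S100A8 and SLPI probes, a window chosen after the values were seen. Around S100A8, 11 probes of 10 genes that are not members were tested, all but SPRR2C of the S100 family. In BT474-Var4 cells 5 of them were higher and 0 lower, with a median of 0.29, and in BT474-Var1 cells 2 were higher and 2 lower, with a median of 0.01. Among the tested probes, the closest to S100A8 were S100A9, 30.6 kb away, and S100A7, 68.3 kb away. Their differences in BT474-Var4 cells were -0.02 and -0.49. S100A5, between S100A6 and S100A4, and S100A3, between S100A4 and S100A2, had differences of -0.29 and -0.09 that did not pass. Around SLPI, 14 probes of 10 genes were tested. Of these 2 were higher and 3 lower in BT474-Var4 cells (median -0.01), and 0 higher and 4 lower in BT474-Var1 cells (median -0.15). Of all tested probes 9.87% were higher and 14.3% lower in BT474-Var4 cells, and 14.1% and 20.3% in BT474-Var1 cells.

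**Figure D4:**
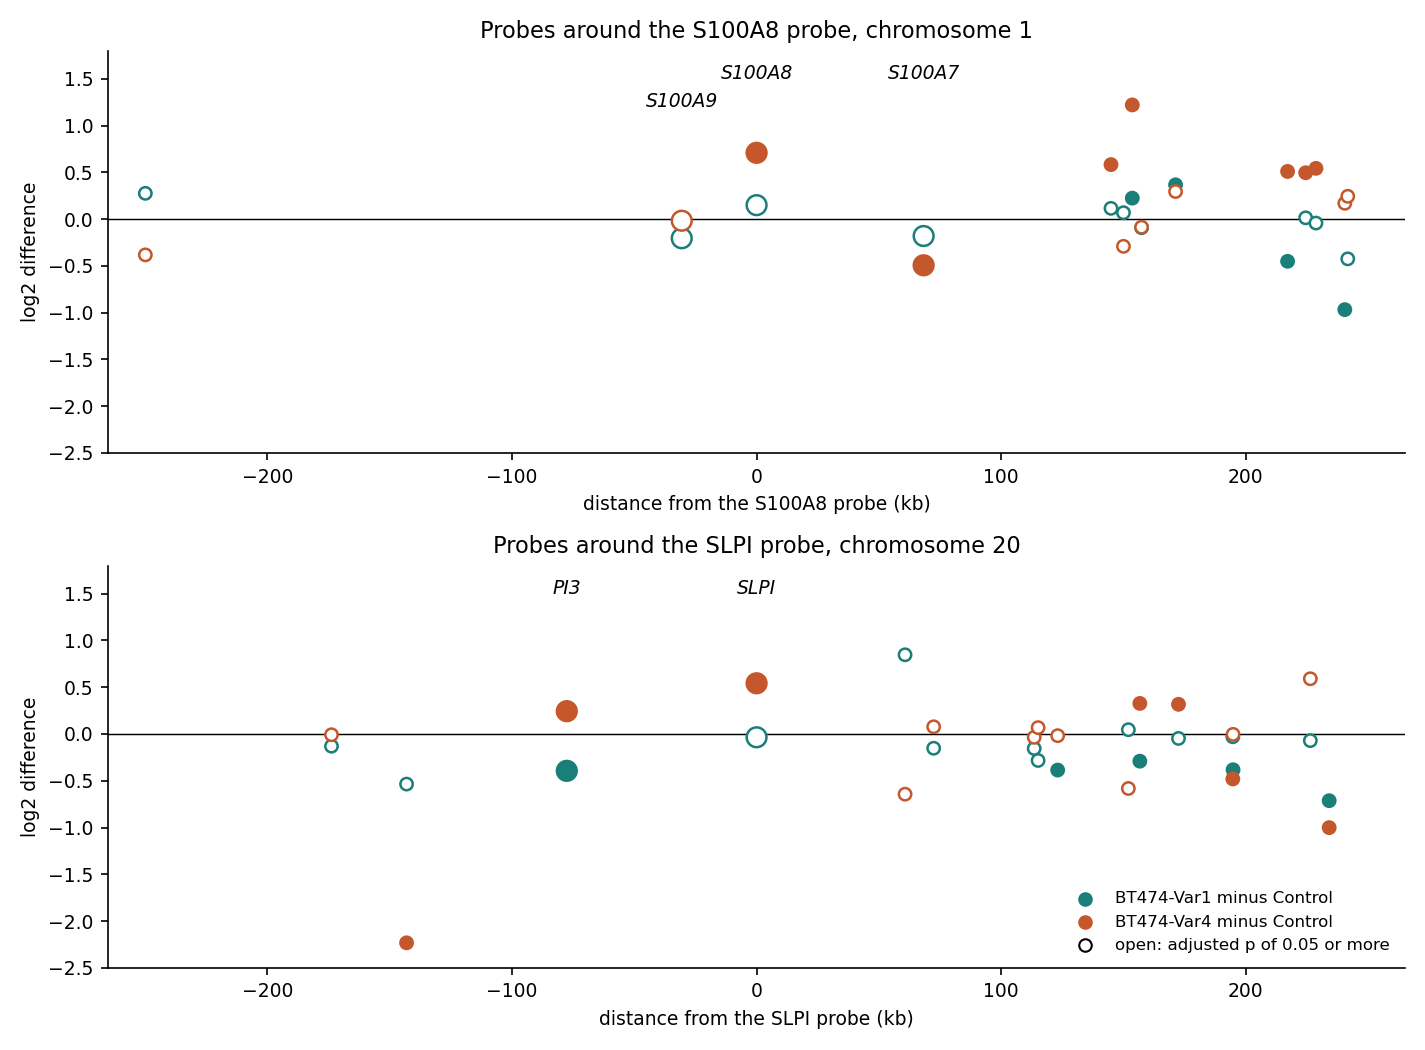
Differences from Control cells (log2, y axis) of the tested probes by their distance in kb from the S100A8 probe on chromosome 1 and from the SLPI probe on chromosome 20. Large points are members and filled points passed at an adjusted p under 0.05. In BT474-Var4 cells S100A8 and the probes 145 to 229 kb from it are mostly above 0 with S100A9 and S100A7 at or below 0, while the probes around SLPI fall on both sides.

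The other WAP domain genes, relatives of PI3 and SLPI, had only 4 tested probes of 4 genes. WFDC3 fell by 0.49 in BT474-Var1 cells (limma adjusted p = 0.0221), where WFIKKN1 was at least 1.73-fold higher, with neither Control array well above background (limma adjusted p = 0.00769). WFDC5 was at least 1.79-fold lower in BT474-Var4 cells, where it was not well above background on either array (limma adjusted p = 0.0234). WFDC5 lies 143.1 kb from SLPI and moved the other way. WFDC2, 226.4 kb from SLPI, had a difference of 0.59 in BT474-Var4 cells that did not pass (limma adjusted p = 0.0569). Without Control A and without Control B the adjusted p of WFDC5 was 0.108 and 0.0905 and that of WFDC3 was 0.0799 and 0.102, and BT474-Var1 A (WFDC3, 0.0525) and BT474-Var4 B (WFDC5, 0.0585) also decided a call.

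Among further epithelial antimicrobial genes 11 probes of 11 genes were tested. Of these 3 were higher and 1 lower in BT474-Var1 and 3 higher and 3 lower in BT474-Var4 cells. In the same order 36.4% and 54.5% passed, beside 34.4% and 24.2% of all tested probes. DCD, the sweat gland peptide dermcidin, had log2 levels of -4.00 and -3.89 in Control A and B, -1.53 and -1.71 in BT474-Var1 A and B, and -3.88 and -4.11 in BT474-Var4 A and B. It was well above background on 1 Control array and no BT474-Var4 array, and both BT474-Var1 arrays lay far above the rest. DCD thus entered the test through the BT474-Var1 arrays alone, the group where it was high. Its fitted difference there was 2.32 (SE 0.11, limma adjusted p = 0.0029), and 0.49 with normexp background correction. CAMP, the cathelicidin gene, rose by 0.97 in BT474-Var4 cells (SE 0.09, limma adjusted p = 0.00622). BPIFA2, a salivary protein, fell by 0.64 in BT474-Var1 cells (limma adjusted p = 0.0174) and rose by 0.55 in BT474-Var4 cells (limma adjusted p = 0.0337). REG3A, a bactericidal lectin, was at least 1.05-fold lower in BT474-Var4 cells, with no array above background there (limma adjusted p = 0.0379). The REG3A call was lost without any 1 of the 6 arrays (limma adjusted p = 0.051 to 0.134) and both BPIFA2 calls without either Control array, among others (limma adjusted p up to 0.0838 and 0.136). Fewer antimicrobial probes, and fewer of all tested probes, passed in BT474-Var4 cells when a Control array was left out.

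Acute-phase plasma proteins other than the SAA family moved in both directions. Of 15 tested probes of 13 genes, 6 were higher and 3 lower in BT474-Var1 cells (median 0.21), and 3 were higher and 5 lower in BT474-Var4 cells (median -0.28). In the same order 60% and 53.3% passed, beside 34.4% and 24.2% of all tested probes. All 3 rises in BT474-Var4 cells were probes of SERPINA3, the inhibitor of cathepsin G. The probe with the largest change had log2 levels of -1.86 and -1.72 in Control A and B, -1.0 and -0.98 in BT474-Var1 A and B, and -0.53 and -0.36 in BT474-Var4 A and B, so the groups did not overlap and stood in this order. SERPINA3 rose by 0.80 in BT474-Var1 (SE 0.09, limma adjusted p = 0.00613), and the BT474-Var4 change was 1.35 (SE 0.09, limma adjusted p = 0.00388). SERPINA1, the plasma inhibitor of neutrophil elastase, had log2 levels of 2.71 and 2.77 in Control A and B, 2.50 and 2.51 in BT474-Var1 A and B, and 1.19 and 1.14 in BT474-Var4 A and B. Every variant array lay below the Control arrays. SERPINA1 thus fell by 1.57 in BT474-Var4 cells (SE 0.05, limma adjusted p = 0.00203), where the elastase inhibitors SLPI and PI3 rose, and by 0.23 in BT474-Var1 cells (SE 0.05, limma adjusted p = 0.0341). HAMP, which encodes the iron hormone hepcidin, fell by 0.41 in BT474-Var1 (limma adjusted p = 0.0419) and fell by 0.55 in BT474-Var4 cells (limma adjusted p = 0.0273). Without Control A or Control B neither HAMP call nor the SERPINA1 call in BT474-Var1 cells held, nor did they without any 1 of the variant arrays (limma adjusted p up to 0.151, 0.106 and 0.146).

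Of the complement genes other than C3, 20 probes of 17 genes were tested, with 7 higher and 3 lower in BT474-Var1 cells (median 0.29) and 4 higher and 1 lower in BT474-Var4 cells (median 0.00). C1R, a protease of the C1 complex, rose in both, by 0.55 in BT474-Var1 (limma adjusted p = 0.00648), and the BT474-Var4 change was 0.71 (limma adjusted p = 0.00601). The second C1R probe had differences of 0.25 (limma adjusted p = 0.0541) and 0.48 (limma adjusted p = 0.0162) in the same order. C1S, the partner of C1R, rose by 0.38 in BT474-Var1 cells (limma adjusted p = 0.0183) and fell by 0.39 in BT474-Var4 cells (limma adjusted p = 0.025). A probe of C2, the protease that helps to cleave C3, rose by 1.27 in BT474-Var1 cells (SE 0.19, limma adjusted p = 0.0113). Its Control levels of -3.95 and -4.39 lay near the dimmest signals well above background, and with normexp its rise was 0.27. The other tested C2 probe was brighter, with a Control mean of -0.21. It had a difference of -0.11 that did not pass (limma adjusted p = 0.416). CD55, which shields cells from complement, fell by 0.75 in BT474-Var1 cells (SE 0.07, limma adjusted p = 0.00549). The C2 call was lost without BT474-Var1 A (limma adjusted p = 0.0508) and both C1S calls without either Control array, among others (limma adjusted p up to 0.0911 and 0.117).

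Of the cytokines known to induce these genes, TNF and IL17C passed as higher in both variants and IL6 in BT474-Var4 cells. IL6 and IL17C were singled out after their values were seen. OSM did not pass, with differences of 1.46 in BT474-Var1 (limma adjusted p = 0.479) and 0.34 in BT474-Var4 cells (limma adjusted p = 0.883). No probe of IL1A, IL1B, IL36G or LIF entered the test. The TNF probe had log2 levels of -5.03 and -4.37 in Control A and B, -1.08 and -1.06 in BT474-Var1 A and B, and -0.32 and -0.47 in BT474-Var4 A and B, and it was well above background on neither Control array and on all 4 variant arrays. TNF was raised at least 9.49-fold in BT474-Var1 (limma adjusted p = 0.0034) and, in BT474-Var4 cells, at least 15.1-fold (limma adjusted p = 0.00332). IL17C, an epithelial IL17 cytokine, had log2 levels of -3.39 and -3.37 in Control A and B, -1.73 and -1.88 in BT474-Var1 A and B, and -1.46 and -1.32 in BT474-Var4 A and B. All 3 groups were apart, and IL17C rose by 1.58 in BT474-Var1 (SE 0.08, limma adjusted p = 0.00294) and, in BT474-Var4 cells, by 1.99 (SE 0.08, limma adjusted p = 0.00262), passing in 15 of 15 alternatives each. IL6 was well above background on no Control array, on BT474-Var1 B and on both BT474-Var4 arrays, at log2 levels of -4.00 and -4.36, -4.59 and -3.53, and -1.30 and -1.35 in the same order. It was raised by a fitted 7.21-fold in BT474-Var4 cells, which is no lower bound. On the log2 scale this was 2.85 (95% confidence interval 1.86 to 3.84, limma adjusted p = 0.013). The BT474-Var1 difference of IL6 was 0.12 and did not pass (limma adjusted p = 0.831). The IL6 call was lost without either Control or either BT474-Var4 array (limma adjusted p = 0.0604 to 0.0742). Of 23 tested probes of 12 genes in this list, 9 were higher and 2 lower in BT474-Var1 cells, with 6 of the 9 being probes of IL6ST, the shared receptor of the IL6 family, a gene singled out after its values were seen. In BT474-Var4 cells 4 were higher and 2 lower. IL17RA, an IL17 receptor chain, was lower in BT474-Var1 cells on 2 of its 3 probes, by up to 0.27 on the log2 scale (limma adjusted p = 0.0287), while the other had a difference of -0.04 (limma adjusted p = 0.693). IL1R1 fell by 0.50 in BT474-Var4 cells on 1 of its 2 probes (limma adjusted p = 0.026), the other having -0.71 (limma adjusted p = 0.111). The larger IL17RA fall and the IL1R1 fall were lost without Control A or Control B and most other arrays (limma adjusted p up to 0.124 and 0.113), and the smaller IL17RA fall without either Control or either BT474-Var1 array (limma adjusted p = 0.0798 to 0.111).

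Of 12 tested probes of 9 transcription factors, 3 were higher and 2 lower in BT474-Var1 and 2 higher and 2 lower in BT474-Var4 cells. ELF3, an epithelial ETS factor, rose in both, by 0.67 in BT474-Var1 (SE 0.05, limma adjusted p = 0.00436), and the BT474-Var4 change was 0.36 (SE 0.05, limma adjusted p = 0.0176). CEBPB, a C/EBP factor of the acute-phase response, had log2 levels of 4.97 and 4.96 in Control A and B, 4.45 and 4.46 in BT474-Var1 A and B, and 5.12 and 5.04 in BT474-Var4 A and B. Both BT474-Var1 arrays lay below the other 4, and CEBPB fell by 0.51 there (SE 0.05, limma adjusted p = 0.00605). Fewer of these probes, and fewer of all tested probes, passed in BT474-Var4 against Control cells when a Control array was left out. The ELF3 call in BT474-Var4 cells was lost without either Control or either BT474-Var4 array.

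Of the receptors and binding partners of the member proteins, 12 probes of 10 genes were tested. Of these 2 were higher and 2 lower in BT474-Var1 and 0 higher and 5 lower in BT474-Var4 cells (medians 0.24 and -0.46). In the same order 33.3% and 41.7% passed, beside 34.4% and 24.2% of all tested probes. The lower ones in BT474-Var4 cells were of 3 genes and included the 3 AGER probes. They also included the CD36 probe, which was not well above background on any Control or BT474-Var4 array. CD36, a scavenger receptor that binds serum amyloid A, was raised at least 3.18-fold in BT474-Var1 cells, with neither Control array well above background (limma adjusted p = 0.0018). CR2, a receptor for C3 fragments, was at least 1.81-fold lower in BT474-Var1 cells, with no array above background there (limma adjusted p = 0.0208). With normexp this fall was -0.13 and did not pass (limma adjusted p = 0.0544). In BT474-Var4 cells, also with no array above background, CR2 was at least 1.67-fold lower but did not pass (limma adjusted p = 0.0508). AGER, the receptor for S100 proteins named RAGE, was lower in BT474-Var4 cells on all 3 of its probes. The AGER probe that was well above background on all arrays had log2 levels of -0.12 and -0.25 in Control A and B, 0.28 and 0.24 in BT474-Var1 A and B, and -0.88 and -0.69 in BT474-Var4 A and B. On it AGER fell by 0.60 in BT474-Var4 cells (SE 0.09, limma adjusted p = 0.0166) and rose by 0.45 in BT474-Var1 cells (limma adjusted p = 0.0234). The other AGER probes were not well above background on any BT474-Var4 array, and 1 of them was at least 1.30-fold lower there (limma adjusted p = 0.0232) while the other gave no bound (limma adjusted p = 0.0288). Fewer of these probes, and fewer of all tested probes, passed in BT474-Var4 cells without Control A or Control B. The calls of CR2 and of AGER on each probe were then lost. The AGER rise in BT474-Var1 cells was also lost without either BT474-Var1 array or either Control array. The AGER fall on the probe measured on all arrays was lost without BT474-Var4 A too. That on both other probes was lost without BT474-Var1 A or B, and that on the probe with no bound also without BT474-Var4 A.

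Over all these related lists 52 of 111 tested probes (46.8%) passed for BT474-Var1 and 44 (39.6%) for BT474-Var4 against Control cells, and 64 (57.7%) between the variants. Of all tested probes 34.4%, 24.2% and 41.2% passed in the same order. The median differences were 0.07, -0.03 and -0.07, beside -0.04, -0.08 and -0.03 over all tested probes. Fewer of these probes passed against Control cells when 1 array was left out, as did fewer of all tested probes.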

How the data were processed

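RNA of 6 BT474 samples (Control, BT474-Var1 and BT474-Var4, replicates A and B each) was measured by the authors on one-color Agilent arrays as Cy3-labeled cRNA. Feature Extraction 11.5.1.1, per the deposited file headers, gave background-subtracted and detrended intensity values for each spot, which were the values used. The authors also deposited a table of log2 values made in GeneSpring with a shift to the 75th percentile, which was used as an alternative.

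Control and outlier spots were left out, spots of a probe were averaged, and log2 of the processed intensity less the array's 75th percentile over probes was computed. The median absolute difference from the deposited log2 table was at most 0.00716 on any array. A probe entered the test if 1 group or more had it well above background on both of its arrays, and the tool was limma 3.58.1 in R 4.3.3, with 1 mean per group over all 6 arrays. Some probes entered the test through 1 group alone, the group where they were high. Among these were DCD, CD36 and WFIKKN1 (BT474-Var1), IL6 (BT474-Var4), and CR2, REG3A, WFDC5 and LCN2 (Control). P-values were Benjamini-Hochberg adjusted over 31857 probes, and a probe passed at an adjusted p under 0.05. The procedure was tested on simulated data. With 2 arrays per group (3 residual degrees of freedom and 1.53 from the moderation) precision is limited by the number of arrays. Where a group was not above background on either array, the fold is a bound: the mean of the brighter group against the higher of the dim probe's own signal and the lowest signal of a probe well above background, averaged over the dim group's arrays. Such a bound takes no account of the spread of the arrays. For IL6 the Control signals themselves were the higher, so its fold is the fitted one.

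Of the related gene lists, the probes with the largest rise and the largest fall among those that passed were named for each comparison of a variant with Control cells. A result that this rule names is not reported here. The members and lists were chosen with earlier results of these data known. Normexp with an offset of 50, quantile normalization, other filters, the deposited table, a replicate block, 2-group fits, other moderation, the one-way analysis of variance of the methods and leaving out each array were the alternatives. Sequences were joined with Python 3.11.15 and pandas 2.3.3 from the array files.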

Additional observations from a re-analysis of the deposited data

Results flagged for a closer look

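A signal lay in data that no comparison used. The second SAA2 probe, left untested because it was not well above background on both arrays of any group, was well above background on BT474-Var1 A alone. Its processed intensity there was 9.67, against 1.36 on BT474-Var1 B, the other array of the group. The first SAA2 probe was not well above background on either array.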

How the results depend on the processing

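Between the variants the higher S100A8, SLPI and PI3 levels in BT474-Var4 cells passed in 15 of 15 alternatives. Against Control cells the count of members passing in BT474-Var1 cells was 1, with 3 under quantile normalization, 2 in the deposited table, with trended and robust moderation and in the one-way analysis of variance, 0 with no filter, and 0 to 1 when each array was left out. With a replicate block it was 2, where LCN2 passed (limma adjusted p = 0.0426). In BT474-Var4 cells the count was 4, with 0 with no filter and 2 when only the 2 groups were fitted, where 17.2% of all tested probes passed. Fewer members, and fewer of all tested probes, passed in BT474-Var4 cells when an array was left out. With the replicate block the PI3 rise in BT474-Var4 cells did not pass (limma adjusted p = 0.0722). No other member call changed with the block. The labels do not say whether the letters A and B pair the samples. The differences A minus B correlated at -0.0124, 0.0451 and -0.0154 between groups across probes. These values show no shared effect of the letter but cannot tell whether samples were paired. With no filter S100A8 in BT474-Var4 cells had a limma adjusted p of 0.0504. The related probes passing were 52 in BT474-Var1 cells (13 with no filter, 32 in the analysis of variance, 18 to 40 by array left out), 44 in BT474-Var4 cells (6 with no filter, 12 to 36 by array left out) and 64 between the variants (36 with no filter). The cause of these shifts was not tested.

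No difference that changed sign had passed. The BT474-Var4 difference of S100A9 from Control cells became 0.0015 with normexp and 0.0248 with quantile normalization, and it ran from -0.40 to 0.368 over the arrays left out, above 0 without Control B (0.0483) and BT474-Var4 A (0.368). Its BT474-Var1 difference ran from -0.466 to 0.0568, above 0 without BT474-Var1 A. Between the variants it ran from -0.198 to 0.573, below 0 without BT474-Var1 A (-0.0741) and BT474-Var4 B (-0.198). With quantile normalization SLPI in BT474-Var1 cells became 0.0403 and C3 -0.0506, with C3 at 0.122 between the variants. C3 in BT474-Var4 cells became -0.0254 with normexp and ran from -0.0787 (without BT474-Var4 B) to 0.121 by array left out, and between the variants from -0.158 to 0.042 (without BT474-Var4 A). LCN2 between the variants became -0.0404 with normexp. Normexp also gave smaller differences for dim genes, such as 0.79 and 1.09 for TNF in BT474-Var1 and BT474-Var4 cells, 0.49 for DCD in BT474-Var1 cells and 0.22 for CAMP in BT474-Var4 cells, all of which passed by limma.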
